A study of Mus musculus with 6 samples.

Results

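The genes of the transforming growth factor beta (TGF-beta) ligands, receptors and latency proteins were compared between 2 mouse melanoma lines. The 10 genes were taken by symbol. Tgfb1, Tgfb2 and Tgfb3 encode the ligands, and Tgfbr1, Tgfbr2 and Tgfbr3 the receptors. Ltbp1, Ltbp3 and Lrrc32 belong to the proteins that hold the ligands latent. Ltbp2 encodes a matrix protein of the family of Ltbp1 and Ltbp3. All 10 had a probe on the array, 14 probes in all, out of 20659 named genes and 39429 probes. B16-F1 cells and D5.1G4 cells, both labelled melanoma, were each measured on 3 one-colour Agilent microarrays, and neither line was treated. Cultures stood for 24 h in RPMI-1640 containing 10% fetal bovine serum and were 75% to 95% confluent. B16-F1 is a line of the widely used B16 mouse melanoma, and the series title names differing tumorigenicity without saying which line is the more tumorigenic. Each side of the comparison is 1 line, so tumorigenicity and any other property in which the lines differ cannot be told apart. Fewer cells that express a gene and less RNA per cell cannot be told apart either. The labels do not say that the 3 samples of a line were separate cultures, so a p-value refers to the spread among these samples alone, and that spread may be technical.

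TGF-beta ligands are secreted in a latent form, in which the cleaved propeptide still wraps the mature ligand. LTBP1 and LTBP3 tie this complex to the matrix, LRRC32 (GARP) holds it at the cell surface, and integrins, thrombospondin 1 and proteases can release the ligand. Free ligand binds TGFBR2, which recruits and phosphorylates TGFBR1, and TGFBR1 phosphorylates SMAD2 and SMAD3, which act in the nucleus with SMAD4. In melanoma the pathway is known for restraining the growth of melanocytes and for dampening the immune response to the tumour.

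A level is given here as the log2 of the processed signal minus the 75th percentile of its array, so 0 marks that percentile. Probes differ in how well they bind, so levels are compared between arrays and not between probes. The 3 B16-F1 and 3 D5.1G4 arrays fell into 3 scan runs by the scan times in the file headers. Run 1 held B16-F1 replicates 2 and 3, run 2 held B16-F1 replicate 1 and D5.1G4 replicates 2 and 3, and run 3 held D5.1G4 replicate 1. The arrays of run 1 stood apart, with 61.7% and 62.0% of their spots well above background, against 53.4% to 54.4% on the other 4 arrays. All 7 melanocyte markers examined (Mlana, Pmel, Tyr, Dct, Tyrp1, Mitf and Sox10) were well above background on every array, and 0 of them were called between the lines. A gene was called when limma gave an adjusted p of 0.05 or less, with Benjamini-Hochberg adjustment over 18442 features, and a fold of at least 2.

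The ligand genes differed in level between B16-F1 and D5.1G4. Tgfb1 was well above background in B16-F1 alone and rose, Tgfb3 fell, and Tgfb2 was lower in B16-F1 by less than 2-fold. Lrrc32 also fell, while the receptor genes and Ltbp3 differed by less than 2-fold. Of the 8 genes that could be tested, 1 rose and 2 fell, against a background of 15.2% of all features called in either direction, 6.28% higher and 8.89% lower. At an adjusted p of 0.05 or less without a minimum fold, 1 of the 8 was higher and 6 were lower in B16-F1, where 34.9% of all features passed, 14.5% higher and 20.4% lower. Leaving out 1 array at a time left 3 to 6 of them lower at that adjusted p. The count was 3 without B16-F1 replicate 2, B16-F1 replicate 3 or D5.1G4 replicate 3, where Tgfb2, Tgfbr2 and Ltbp3 had adjusted p of 0.0553 to 0.0824. In 7 of the 8 genes all arrays of one line lay on the same side of those of the other, against 50.7% of the features measured on all 6 arrays. Tgfb1 entered the test through its 3 B16-F1 arrays alone, so its difference is part of how it was admitted. The median difference of the 8 tested genes was -0.71 on the log2 scale, also with Tgfb1 at its bound, and that of all features 0.00 (-0.0042).

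**Figure D1:**
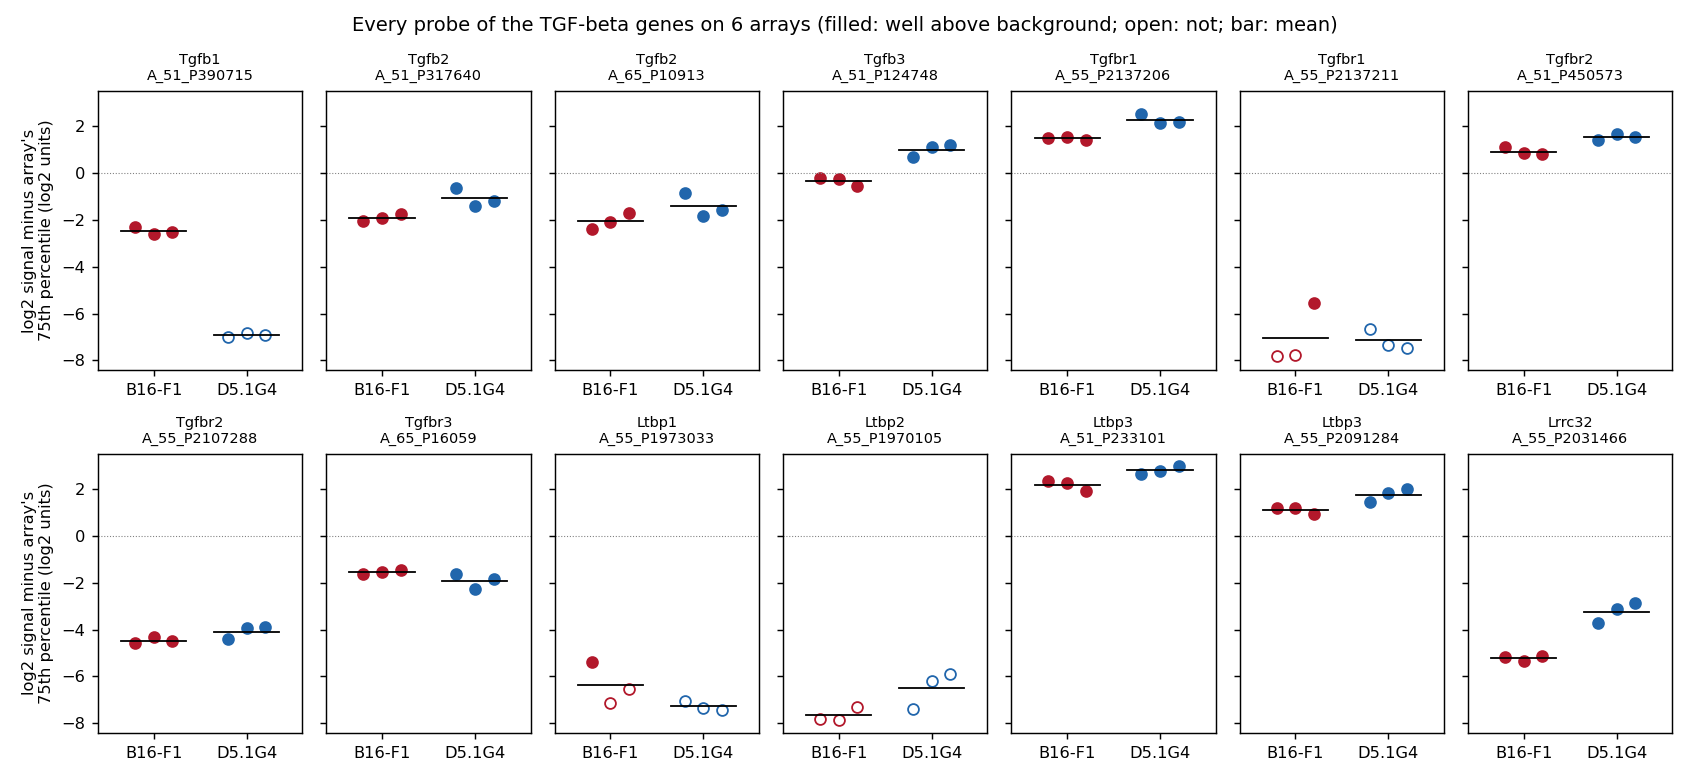
Log2 level (signal minus the 75th percentile of the array) of all 14 probes of the 10 genes, with B16-F1 in red on the left and D5.1G4 in blue on the right of each panel. Each point is an array, filled where the probe was well above background, and bars are means of 3 arrays. Tgfb1 is filled in B16-F1 and open in D5.1G4, whereas Tgfb3 and Lrrc32 lie lower in B16-F1.

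Tgfb1, on chromosome 7, encodes the ligand best known as an immune suppressor. Its probe (A_51_P390715) had log2 levels of -2.28, -2.62 and -2.53 in B16-F1, against -7.01, -6.82 and -6.91 in D5.1G4. The processed signals behind these levels were 297, 222 and 352 intensity units in B16-F1 and 14.4, 8.38 and 8.41 in D5.1G4. The 2 groups were far apart and the B16-F1 arrays lay close together. The D5.1G4 arrays lay close together too, but at background, where closeness does not measure agreement on Tgfb1 RNA. Because no D5.1G4 array had Tgfb1 well above background, its level there has only an upper limit. The signal of Tgfb1 in B16-F1 was at least 6.30-fold higher, taking the dimmest signal still well above background as the limit on each D5.1G4 array. The limma adjusted p was 2.23e-05 for a probe that entered the test through B16-F1 alone, and it used the background spread of D5.1G4. With normexp background correction, which adds an offset to every signal, the log2 difference was 1.92 (adjusted p = 0.0238). That is under the bound, which is 2.65 on the log2 scale. The 6.30-fold bound thus holds for the processed signals used here and not for every background correction.

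The array carries 10 spots of the Tgfb1 probe, which gives its own measure of technical error. On B16-F1 replicate 1 the spots ran from -2.46 to -2.11 on the log2 level scale, and all 10 were well above background on each B16-F1 array. On D5.1G4 replicate 2, the array with the widest spread, the unflagged spots ran from -7.27 to -5.21. Across the 3 D5.1G4 arrays 0, 1 and 0 of the 10 spots were well above background. These counts include the 1 flagged spot of each D5.1G4 array, which was left out of its level. The spot well above background on D5.1G4 replicate 2 was the flagged one. The highest unflagged spot there, at -5.21, lay below the dimmest unflagged signal well above background on that array, at -5.09. The lowest B16-F1 spot lay above the highest unflagged D5.1G4 spot.

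Tgfb3, on chromosome 12, encodes a ligand known from palate and heart development. It was well above background on all 6 arrays. Its log2 levels were -0.20, -0.24 and -0.53 in B16-F1, against 0.69, 1.13 and 1.19 in D5.1G4. Every B16-F1 array was below every D5.1G4 array. Tgfb3 fell 2.51-fold (log2 difference -1.33, SE 0.18, adjusted p = 0.00265). This probe (A_51_P124748) has 10 spots too, whose SD within an array was 0.042 to 0.074 log2 units, below the SD of 0.18 between B16-F1 arrays and 0.27 between D5.1G4 arrays. Without the 2 arrays of scan run 1, which leaves 1 B16-F1 array, the log2 difference was -1.21 and the call was lost (adjusted p = 0.0584). Within scan run 2, which also holds 1 B16-F1 array, the log2 difference was -1.36.

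**Figure D2:**
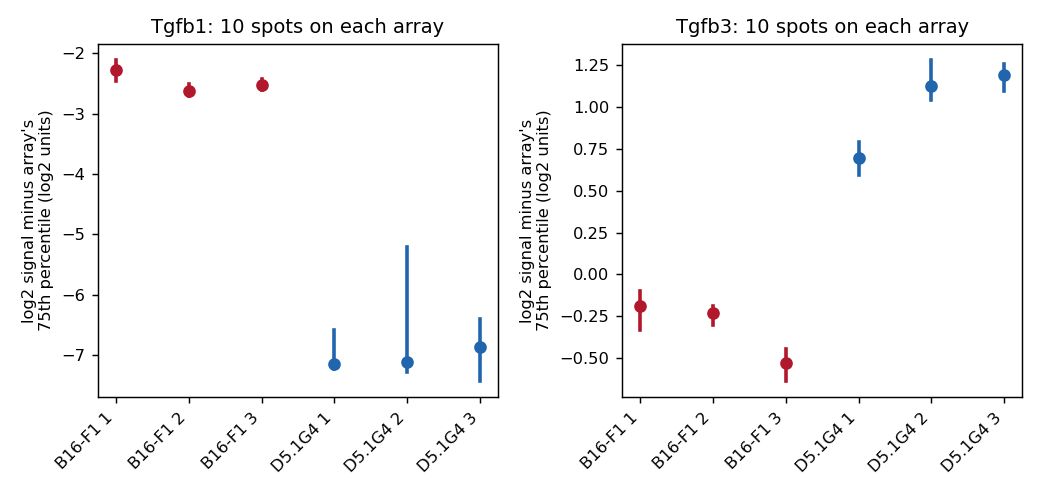
Spread of the 10 spots of the Tgfb1 probe (left) and the Tgfb3 probe (right) on each array, B16-F1 in red and D5.1G4 in blue, as log2 level. Points are medians and lines run from the lowest to the highest unflagged spot. The Tgfb1 spots of B16-F1 all lie above those of D5.1G4, and the Tgfb3 spots of B16-F1 all lie below.

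Tgfb2, on chromosome 1, encodes the ligand that depends most on the co-receptor TGFBR3 for binding. Its probe with the higher mean (A_51_P317640) had log2 levels of -2.05, -1.93 and -1.75 in B16-F1, against -0.61, -1.39 and -1.17 in D5.1G4. The groups did not overlap, with D5.1G4 replicate 1 the highest array. The log2 difference was -0.85 (SE 0.22, 95% interval -1.39 to -0.31, adjusted p = 0.0284), short of a 2-fold change. The other probe (A_65_P10913) gave -0.64, its groups overlapped, and its adjusted p was 0.15 with every probe as a feature. Without D5.1G4 replicate 2 Tgfb2 passed both thresholds (log2 difference -1.02, adjusted p = 0.0269).

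The regions around the starts of Tgfb1 and Tgfb2 are printed because Tgfb1 was the ligand gene that rose and Tgfb2 is the other ligand gene with an entry. The RefSeq promoter table of the GRCm38.p6 build, which is not the mm9 build of the array annotation, held 7 of the 10 genes, and Tgfb3 and Lrrc32 were not among them. Each entry runs from 250 bases before to 50 bases after a transcript start, 5′ to 3′ on the strand of the gene. Capitals mark GGGCGG (the GC box), TATAAA (the TATA box), CACGTG (an E-box), TGANTCA (the AP-1 site) and TGACGTCA (the cyclic AMP response element), searched on both strands. The Tgfb1 entry is chr7:25686752-25687051 on the plus strand and the Tgfb2 entry chr1:186705940-186706239 on the minus strand.
Tgfb1: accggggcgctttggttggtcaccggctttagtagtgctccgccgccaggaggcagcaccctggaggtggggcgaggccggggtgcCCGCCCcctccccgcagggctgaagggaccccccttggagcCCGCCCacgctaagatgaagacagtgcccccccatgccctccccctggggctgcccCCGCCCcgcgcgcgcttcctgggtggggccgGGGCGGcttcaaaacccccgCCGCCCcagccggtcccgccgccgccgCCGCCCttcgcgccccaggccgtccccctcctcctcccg
Tgfb2: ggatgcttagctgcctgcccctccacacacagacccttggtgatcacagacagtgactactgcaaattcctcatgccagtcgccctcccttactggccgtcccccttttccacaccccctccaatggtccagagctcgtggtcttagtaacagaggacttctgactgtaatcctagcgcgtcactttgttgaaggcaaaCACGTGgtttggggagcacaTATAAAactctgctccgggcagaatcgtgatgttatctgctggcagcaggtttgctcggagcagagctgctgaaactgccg
The Tgfb1 region was 77% G or C and held 6 GC boxes, and 0 matches to the other 4 motifs. The Tgfb2 region was 54.3% G or C and held 1 TATA box and 1 E-box, with 0 GC boxes. Of all 32851 promoter entries, 35.7% held a GC box, 13.6% a TATA box and 7.15% the E-box, and their median share of G and C was 52.7%. The AP-1 site was in 7.81% of all entries and, among the 7 genes, in that of Ltbp3 alone, and the cyclic AMP response element was in 1.79% of all entries and in 1 of the 2 entries of Ltbp1. These matches describe letters only, and no factor binding was measured.

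Both signalling receptors were expressed in the 2 lines, with estimated differences under 2-fold. Tgfbr1, on chromosome 4, encodes the type I kinase that phosphorylates SMAD2 and SMAD3. Its brighter probe (A_55_P2137206) had log2 levels of 1.50, 1.53 and 1.44 in B16-F1, against 2.52, 2.14 and 2.17 in D5.1G4. The groups did not overlap, and D5.1G4 replicate 1 was the highest array. The log2 difference was -0.79 (SE 0.14, 95% interval -1.12 to -0.45, adjusted p = 0.00687). The second probe (A_55_P2137211) was well above background on B16-F1 replicate 3 alone, with a log2 level of -5.54, and was not tested. A mean over both probes, the second one mostly background, gave -0.34 (adjusted p = 0.484).

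Tgfbr2, on chromosome 9, encodes the type II kinase that binds the ligand first. Its brighter probe (A_51_P450573) had log2 levels of 1.12, 0.85 and 0.80 in B16-F1, against 1.42, 1.67 and 1.54 in D5.1G4. The groups were separate but close, with a log2 difference of -0.62 (SE 0.14, 95% interval -0.96 to -0.28, adjusted p = 0.0165). The dimmer probe (A_55_P2107288) gave -0.39, with overlapping groups and an adjusted p of 0.137.

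Tgfbr3, on chromosome 5, encodes betaglycan, the co-receptor that presents ligand to TGFBR2. Its log2 levels were -1.64, -1.56 and -1.47 in B16-F1, against -1.63, -2.27 and -1.83 in D5.1G4. The groups overlapped, D5.1G4 varied more than B16-F1, and no difference was detected (log2 difference 0.36, SE 0.18, 95% interval -0.09 to 0.80, adjusted p = 0.188).

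Of the latency genes, Ltbp3 and Lrrc32 were measured in both lines. Ltbp3, on chromosome 19, encodes a binding protein that joins the latent complex and ties it to the matrix. Its brighter probe (A_51_P233101) had log2 levels of 2.33, 2.25 and 1.92 in B16-F1, against 2.65, 2.77 and 2.97 in D5.1G4. Every B16-F1 array was lower, and the log2 difference was -0.63 (SE 0.16, 95% interval -1.01 to -0.25, adjusted p = 0.0248). The other Ltbp3 probe (A_55_P2091284) gave -0.65 (adjusted p = 0.0306). The estimates of both Ltbp3 probes were under a 2-fold change, with 95% intervals that reached past it.

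Lrrc32, on chromosome 7, encodes the membrane protein that displays latent TGF-beta on regulatory T cells and platelets. Its probe (A_55_P2031466) had log2 levels of -5.18, -5.35 and -5.15 in B16-F1, against -3.72, -3.11 and -2.86 in D5.1G4. All 6 arrays were well above background, and every B16-F1 array was below every D5.1G4 array. Lrrc32 fell 3.99-fold (log2 difference -2.00, SE 0.23, adjusted p = 0.00153). In B16-F1 its processed signals were 39.7, 33.4 and 57.4 intensity units, close to the dimmest signals well above background on those arrays, at log2 levels of -5.50, -5.63 and -5.83. With normexp background correction, which adds an offset to every signal, the log2 difference was -0.67 and the call was lost (adjusted p = 0.554).

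Markers of cells that carry LRRC32 were examined beside this result. Among 5 leukocyte and T cell markers, Cd4, a T cell co-receptor gene, fell by 3.15 on the log2 scale (SE 0.28, adjusted p = 0.00057), while Cd3e and Foxp3 were not called. The second Cd4 probe was well above background on 2 B16-F1 arrays and 0 D5.1G4 arrays. The summed linear level of the 5 markers was 0.963 to 1.55 in B16-F1 and 5.94 to 10.2 in D5.1G4. Most of this sum came from the brighter Cd4 probe alone. Its log2 levels were -0.44, 0.12 and -0.07 in B16-F1 and 2.47, 3.28 and 3.31 in D5.1G4. Ptprc (CD45), which marks all leukocytes, was well above background on 2 B16-F1 arrays and 0 D5.1G4 arrays. For the second Cd4 probe and for Ptprc the 2 arrays were those of scan run 1. The endothelial gene Cdh5 and the platelet genes Itga2b and Pf4 were below that mark on all 6 arrays. Pecam1 and Kdr, of the same marker list, were well above background on all 6 arrays and were not called. The part of these markers in the Lrrc32 difference was not tested.

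Ltbp1 and Ltbp2 were near background. Ltbp1, on chromosome 17, encodes the founding member of the LTBP family, and its probe (A_55_P1973033) was well above background on B16-F1 replicate 1 alone. Its log2 levels were -5.40, -7.15 and -6.56 in B16-F1, against -7.07, -7.36 and -7.42 in D5.1G4. Ltbp2, on chromosome 12, encodes a matrix protein of the same family that is not known to bind latent TGF-beta. No array had its probe (A_55_P1970105) well above background, with log2 levels of -7.81, -7.87 and -7.29 in B16-F1 and -7.37, -6.21 and -5.92 in D5.1G4. Both genes were left out of the test, and differences between the lines were not detectable at these signals.

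**Figure D3:**
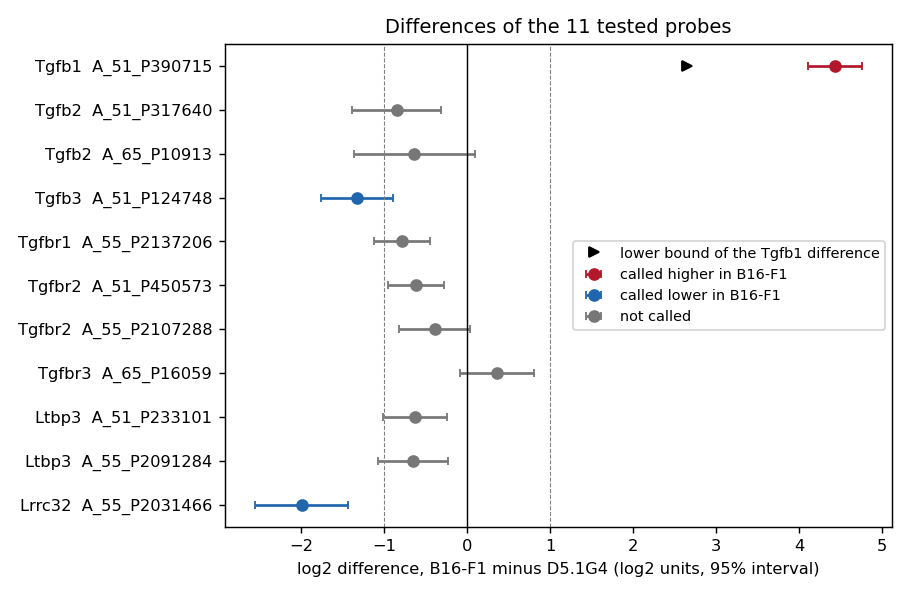
Log2 difference (B16-F1 minus D5.1G4) of the 11 tested probes with 95% intervals from limma, each probe fitted as a feature of its own. Dashed lines mark a 2-fold change, and the arrowhead marks the lower bound of the Tgfb1 difference, 2.65. The point of Tgfb1 is to the right, those of Tgfb3 and Lrrc32 are past the left dashed line, and the remaining points lie between the dashed lines. The intervals of Tgfb3, both Tgfb2 probes, the Tgfbr1 probe and both Ltbp3 probes cross the left dashed line. With every probe as a feature, 15.7% of 22131 probes were called.

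The calls of Tgfb3 and Lrrc32 were also examined by scan run. With scan run as a block, the log2 differences were -1.36 for Tgfb3 (adjusted p = 0.0159) and -2.20 for Lrrc32 (0.00612). Run 1 held only B16-F1 and run 3 only D5.1G4. This fit therefore takes the line difference from scan run 2 alone, with its 1 B16-F1 array. For that reason the log2 differences within scan run 2 were the same, and they are not a separate check. Tgfb1 stayed near background in D5.1G4 in both runs that held that line, so no measured difference within a run is given. The 4 genes lower in B16-F1 by less than 2-fold no longer passed an adjusted p of 0.05 with the scan block, Tgfb2 at 0.0539, Tgfbr1 at 0.0523, Tgfbr2 at 0.109 and Ltbp3 at 0.148. Their log2 differences in that fit ran from -0.77 to -0.48, beside a median of -0.15 over all features.

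Of the genes that mature or release the ligands, 10 could be tested, and 3 rose and 0 fell. Over all features 6.28% were higher and 8.89% lower. The median of the 10 log2 differences was 0.42. Thbs1, whose product thrombospondin 1 activates latent TGF-beta, rose by 1.89 on the log2 scale (SE 0.14, adjusted p = 0.000351), with levels of -2.49, -2.85 and -2.72 in B16-F1 against -4.44, -4.73 and -4.56 in D5.1G4. The integrin subunit genes Itgav and Itgb1, which encode chains of receptors that bind the latency propeptide, rose by 1.19 (SE 0.23) and 1.41 (SE 0.28). The second Itgav probe gave -0.05, the mean over both probes 0.57, and both integrin calls were lost with scan run as a block (adjusted p = 0.0669 for Itgav and 0.117 for Itgb1). The second Itgb1 probe gave 2.02, with overlapping groups and an adjusted p of 0.149 with every probe as a feature. With the mean over its probes the Itgb1 call was lost (1.72, adjusted p = 0.0758). Itgav also fell under the fold without B16-F1 replicate 3 (0.97) and without the arrays of scan run 1 (0.91). The Itgav call was lost with the replicate block too (adjusted p = 0.0547). With normexp Thbs1 and Itgb1 lost their calls (adjusted p = 0.0529 and 0.0577), leaving 1 called gene. Itgb6 and Itgb8, whose products pair with the alpha-v chain in the best known activators, were not well above background on any array. Furin, the protease that cleaves the ligand precursor, was measured on 2 B16-F1 arrays and 1 D5.1G4 array after removal of marked spots. It was not called (-0.87). These were B16-F1 replicates 2 and 3, of scan run 1, and D5.1G4 replicate 1, of scan run 3. Line and scan run therefore cannot be told apart for Furin. Mmp14, a membrane protease, had a log2 difference of 2.36 but did not pass the test (adjusted p = 0.0876). Without the arrays of scan run 1, 2 of 9 tested genes of this list rose.

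Other storage and latency genes gave 1 that rose and 2 that fell of 9 tested, beside 6.28% and 8.89% of all features. Their median was -0.65, also with Htra1 at its bound. With B16-F1 replicate 2 left out 4 fell, and with D5.1G4 replicate 3 left out 1 fell. Nrros (LRRC33), a relative of LRRC32 that holds latent TGF-beta on microglia and macrophages, rose by 2.36 (SE 0.18, adjusted p = 0.000338). Its log2 levels were 1.20, 0.78 and 0.63 in B16-F1, against -1.60, -1.36 and -1.50 in D5.1G4. Nrros and Lrrc32 thus passed the test in opposite directions, while the macrophage markers Adgre1 and Csf1r were not called. Emilin1, a matrix protein that keeps the TGF-beta1 precursor from being processed, fell by 4.47 (SE 0.21, adjusted p = 6e-05) and was well above background on 1 of 3 B16-F1 arrays. Htra1, a secreted serine protease, was not well above background in B16-F1 and entered the test through D5.1G4 alone. It was at least 2.31-fold lower in B16-F1 (adjusted p = 0.0151), a call lost without D5.1G4 replicate 2 (0.0508) or 3 (0.0567) and with normexp (0.755). Ltbp4 was lower by less than 2-fold (-0.98, adjusted p = 0.00951). Without the arrays of scan run 1 the list gave 1 that rose and 3 that fell.

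Of the co-receptors and receptor regulators, 1 rose and 2 fell of 12 tested (median 0.08), beside 6.28% and 8.89% of all features. With replicate 3 of B16-F1 or replicate 1 of D5.1G4 left out 0 rose, and with replicate 1 of B16-F1 or replicate 2 of D5.1G4 left out 1 fell. Cd109, a surface protein that binds TGF-beta and dampens its signal, fell by 1.89 (SE 0.14, adjusted p = 0.000353), with log2 levels of -0.78, -0.89 and -1.21 in B16-F1 against 1.00, 0.85 and 0.94 in D5.1G4. Zfyve9 (SARA), which brings SMAD2 and SMAD3 to the receptor, fell by 1.03 (SE 0.17), a call lost with normexp (adjusted p = 0.791), without the arrays of scan run 1 (0.0603), and by falling under the fold when B16-F1 replicate 1 (-0.96) or D5.1G4 replicate 2 (-0.88) was left out. Nrp1, a co-receptor for TGF-beta and semaphorins, rose by 1.30 (SE 0.29), a call lost with normexp (0.91, adjusted p = 0.173). The call was also lost at similar size without B16-F1 replicate 3 (1.23, adjusted p = 0.0564) and without the arrays of scan run 1 (1.36, adjusted p = 0.128), and just under the fold without D5.1G4 replicate 1 (1.00, adjusted p = 0.0129). Eng (endoglin) did not differ detectably (0.24, 95% interval -0.16 to 0.64). Without the arrays of scan run 1, 0 rose and 1 fell in this list.

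Genes of the SMADs and their regulators were well above background throughout, and 1 rose and 1 fell of 16 tested (median -0.21), where 15.2% of all features were called. With replicate 1 of B16-F1 or replicate 3 of D5.1G4 left out 2 fell, and with replicate 3 of B16-F1 left out 0 rose. Nedd4l, a ubiquitin ligase that marks activated SMAD2 and SMAD3, fell by 1.53 (SE 0.11, adjusted p = 0.000271), though its second probe gave 0.21 and the mean over both -0.66. Tgif2, a co-repressor of SMADs, rose by 1.18 (SE 0.21, adjusted p = 0.00724), a call lost with scan run as a block (0.102) and, under the fold, without B16-F1 replicate 3 (0.95). Smad3 and Smad4 were lower by less than 2-fold, with log2 differences of -0.67 (adjusted p = 0.0153) and -0.98 (adjusted p = 0.00148), where a second Smad4 probe gave 0.54. The inhibitory Smad7, itself induced by the pathway, differed by 0.16 (adjusted p = 0.644).

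Genes known to be induced by TGF-beta moved in both directions, 4 that rose and 3 that fell of 17 tested, with a median of -0.19. Over all features 6.28% rose and 8.89% fell. Pmepa1, which curbs SMAD signalling as a feedback inhibitor, rose by 2.02 (SE 0.11, adjusted p = 9.46e-05). Its log2 levels were -0.98, -0.88 and -0.82 in B16-F1, against -2.98, -2.90 and -2.86 in D5.1G4, and its second probe gave 2.05. Ccn2, a matricellular growth factor, rose by 1.45 (SE 0.16, adjusted p = 0.00138), Col1a1 by 1.73 and the transcription factor gene Bhlhe40 by 1.03. Col1a2 fell by 3.74 (SE 0.13, adjusted p = 3.32e-05) and Postn, the periostin gene, by 1.39. Fn1 (fibronectin) fell by 2.10, a value that rests on 1 measured D5.1G4 array after removal of marked spots, which is assumed to vary like the B16-F1 arrays. That call was lost when scan run 1 was left out (-1.89, adjusted p = 0.068) and with the replicate block (-1.89, adjusted p = 0.0796). Fn1 could not be tested with scan run as a block or without D5.1G4 replicate 1. Without the arrays of scan run 1, 4 rose and 1 fell in this list.

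**Figure D4:**
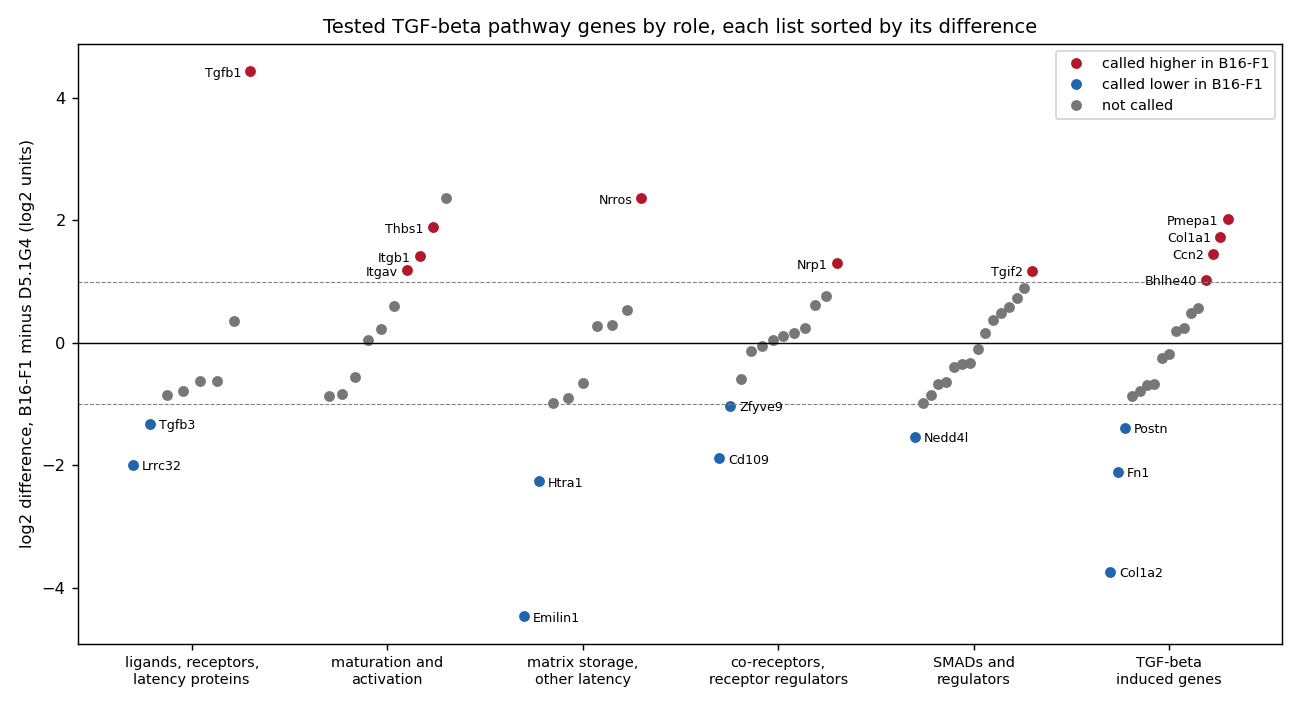
Log2 difference (B16-F1 minus D5.1G4) of every tested gene, by role in the pathway, sorted within each list. Red points were called higher in B16-F1, blue points lower, and grey points were not called, with dashed lines at a 2-fold change. Tgfb1 and Htra1 are drawn at measured differences that include background signal of one line, and each list except that of maturation and activation holds points on both sides of the dashed lines.

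For each of the 3 called genes, the 3 named genes with the most similar profile were found by the root mean square distance of centred log2 levels over the 6 arrays, among 12206 genes. Nearest to Tgfb1 were Scd1, a fatty acid desaturase gene (distance 0.11), the carbonic anhydrase gene Car14 (0.13) and Kit, the stem cell factor receptor gene (0.14). The log2 differences were 4.57 for Scd1 and 4.38 for Car14, and Kit, like Tgfb1, was not well above background in D5.1G4. Nearest to Tgfb3 were Slco3a1, Efcab2 and Tctn3, at distances of 0.068 to 0.072. Nearest to Lrrc32 were C030016D13Rik, Gprc5b and Ccdc84, at 0.13 to 0.15. With 2 lines in the data, these distances mostly reflect the size of the difference between the lines.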

How the data were processed

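RNA of B16-F1 and D5.1G4 cells was measured on 6 one-colour arrays, 3 for each line, grouped by sample title. The deposited intensity of each spot came from Agilent Feature Extraction 11.0.1.1 (Cy3), background-subtracted and detrended within the array, with low values replaced by a positive surrogate and no step between arrays, per the file headers. The deposited 0 or 1 flags mark spots well above background or of uneven quality, per the file headers. The authors' table of log2 values, used as an alternative, has column medians of 9.71 and a maximum of 18.0 in each column, and its centring and scaling stay unknown.

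The log2 processed signal minus the 75th percentile of the array was used. Spots marked uneven or outlying were left out, and the rest averaged per probe. Accessions were matched without version to RefSeq genes of GRCm38.p6, and 27234 of 39429 probes (69.1%) had 1 gene. Each gene was represented by its probe of highest mean level, and features well above background on at least 3 of 6 arrays were tested with limma 3.58.1 in R 4.3.3 (lmFit and eBayes, line as the only term, 2-sided, 3 arrays against 3). Every probe of the 10 genes was also fitted as its own feature. The fitting step was tested on simulated data. A fold against a line not above background is a bound from the dimmest signal well above background. The number of arrays limits the precision, and no non-control spot was saturated (0 spots). The genes and lists were chosen with earlier results of these data known. Named genes are the 10 genes, up to 4 called genes of each list with the largest differences, and Ccn2, Smad7, Smad3, Smad4, Eng and Furin. Some genes covered by this rule or the marker lists are not reported here. Others complete a count or were chosen after their values were seen. Alternatives covered background correction, normalization, filters, flags, probes, the variance model, the call rule, scan run, replicate numbers and single arrays. Normexp used median spot signals, as the files hold no mean signal.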

Additional observations from a re-analysis of the deposited data

How the results depend on the processing

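Tgfb1 passed the thresholds in the 18 alternatives that tested it, which it entered through B16-F1 alone, so this says little about stability. Its lowest log2 difference among them was 1.92, with normexp. Tgfb1 was not tested when all 6 arrays had to be well above background. Tgfb3 was negative in all 19 (-1.49 to -1.21), losing its call without the arrays of scan run 1, a setting chosen after seeing the data. Lrrc32 was negative in all 19 and lost its call with normexp. Tgfb2, Tgfbr1, Tgfbr2 and Ltbp3 were negative and Tgfbr3 positive in every alternative, and only Tgfb2, without D5.1G4 replicate 2, was called. Without the filter on dim probes, Ltbp1 gave 0.91 (adjusted p = 0.176) and Ltbp2 -1.16 (0.079). The causes were not tested. Normexp lowered the count of called features to 1255 of 18445 tested, against 2799 in the report, and 2 of the 10 genes were called. Leaving out 1 array at a time gave 2530 to 3375 called features and 3 to 4 called genes of the 10. Scan run as a block shifted the median of all features to -0.15.

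Pairing of samples by replicate number could not be settled, because the scan runs cut across the replicate numbers. Deviations of same-numbered arrays from their line means correlated across features at -0.39, -0.03 and -0.30, and with the replicate block 2583 features and 3 of the 10 genes were called.

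Signal over background limits Ltbp1, Ltbp2, the second Tgfbr1 probe, Tgfb1 in D5.1G4 and Lrrc32 in B16-F1.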
